A study of Mus musculus with 2 samples.

Results

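The PDGF ligand genes and the genes of 2 further trophic systems of glia, the neurotrophins and the GDNF family, were compared in whole mouse optic nerve at postnatal day 12. The 10 genes were taken by symbol from a table of 23950 symbols. They are the ligands Pdgfa, Pdgfb, Pdgfc and Pdgfd, the neurotrophin receptors Ntrk2 and Ntrk3 with their ligands Bdnf and Ntf3, and the GDNF receptor genes Gfra1 and Ret. The genes for the PDGF receptors were not among them. All 10 had 1 entry each. RNA-seq was available from 1 control library, whose animals were Hdac3 f/+; Olig1-cre, and from 1 library of the group named Hdac3 cKO, with the genotype Hdac3 f/f; Olig1-cre. The strain was mixed in both. Both groups therefore carry Olig1-cre, a recombinase driven from a gene of the oligodendrocyte lineage, and the control group still carries 1 floxed Hdac3 allele. The sources used here do not say how many animals went into each library.

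With 1 library per group there was no replicate check and no p-value, and every difference describes these 2 libraries. Values are FPKM, fragments per kilobase of transcript, scaled also by the total of fragments, with the interval that was deposited beside each value. That interval covers estimation within a library, not variation between animals. Summed over 1 entry per symbol, FPKM came to 439258 in control and 553903 in cKO, and read depth is unknown. Hdac3 itself stood at 36.4 FPKM in control against 38.0 in cKO, so the level of the whole gene does not check the genotype labels, and directions below refer to the library labelled cKO. A gene was tested when it reached 1 FPKM in at least 1 library. The difference is log2 of (cKO + 1) over (control + 1), and a gene was called when this was at least 2-fold and the intervals were separate. The median difference of all 14154 tested genes was 0.12, with quartiles at -0.17 and 0.43.

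PDGF-A is the classical mitogen and survival factor of oligodendrocyte precursors, and astrocytes are a known source of it in the optic nerve. PDGF-B, made by endothelium, recruits mural cells to vessels. PDGF-C and PDGF-D are secreted with a CUB domain that proteases must remove before the factor can act. TrkB, the product of Ntrk2, binds BDNF and NT-4, and TrkC, the product of Ntrk3, binds NT-3, which supports oligodendrocyte precursors in culture. GDNF binds the surface-anchored GFRα1, which signals through the kinase RET or through NCAM.

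The upstream promoter sequences of 4 genes are shown because their levels carry the comparison. Pdgfa is the most abundant ligand, Ntrk2 the most abundant receptor, and Pdgfd and Gfra1 have the largest positive and negative differences. Each is the 250 bases before the most upstream start listed by RefSeq (GRCm38.p6), written from 5′ to 3′ on the gene's strand. Capitals mark a GC box (GGGCGG, the motif of Sp1-type factors) or a match to the letters of a TATA box (TATAAA) on either strand.
Pdgfa, chr5:138994945-138995194, minus strand: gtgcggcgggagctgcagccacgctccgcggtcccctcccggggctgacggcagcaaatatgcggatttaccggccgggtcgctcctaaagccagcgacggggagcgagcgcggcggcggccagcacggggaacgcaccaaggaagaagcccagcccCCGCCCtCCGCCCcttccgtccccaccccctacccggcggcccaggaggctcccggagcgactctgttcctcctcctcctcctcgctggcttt
Pdgfd, chr9:6168236-6168485, plus strand: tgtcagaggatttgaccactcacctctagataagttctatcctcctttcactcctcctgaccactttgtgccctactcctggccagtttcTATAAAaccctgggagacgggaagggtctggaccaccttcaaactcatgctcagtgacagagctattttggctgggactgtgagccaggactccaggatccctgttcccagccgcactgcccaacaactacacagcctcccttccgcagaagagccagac
Ntrk2, chr13:58806319-58806568, plus strand: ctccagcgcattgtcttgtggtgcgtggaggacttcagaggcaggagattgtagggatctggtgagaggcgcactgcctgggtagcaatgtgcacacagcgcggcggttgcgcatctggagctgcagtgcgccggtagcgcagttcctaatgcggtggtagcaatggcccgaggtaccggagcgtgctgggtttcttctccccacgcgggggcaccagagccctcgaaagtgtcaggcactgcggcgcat
Gfra1, chr19:58455399-58455648, minus strand: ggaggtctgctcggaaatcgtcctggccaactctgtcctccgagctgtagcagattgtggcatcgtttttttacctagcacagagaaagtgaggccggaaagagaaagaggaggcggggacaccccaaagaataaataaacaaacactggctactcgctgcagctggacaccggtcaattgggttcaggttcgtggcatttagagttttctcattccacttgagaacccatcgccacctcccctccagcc

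The upstream sequence of Pdgfa was 72.4% G and C, against a median of 52.4% over 32851 RefSeq promoters of the same length, and held 2 adjacent GC boxes. That of Ntrk2 was 62.8% G and C with no GC box, and that of Gfra1 52.4% with neither motif. That of Pdgfd was 53.6% with no GC box and 1 match to TATAAA. The TATAAA match of Pdgfd begins at position -160, counted from the listed start, and its use as a TATA box was not tested. A GC box was present in 32.7% of all promoters and a TATA box in 12.4%. The table of promoters had an entry for 7 of the 10 genes. These matches describe letters, and binding was not measured.

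Among the PDGF ligands, Pdgfa and Pdgfd were at higher levels in the cKO library, Pdgfb overlapped between the libraries, and Pdgfc was slightly lower in cKO. Pdgfa (chromosome 5, 139452929 to 139470907 in mm9) stood at 52.0 FPKM in the control library against 89.4 in the cKO library, with deposited intervals of 39.6 to 46.4 and 69.9 to 75.2. The intervals were separate, although each value lies above its own. The log2 difference was 0.77, higher than that of 89.0% of tested genes, and did not reach 2-fold. Pdgfd (chromosome 9, 6168612 to 6377519) was at 9.08 FPKM in control, with an interval of 7.40 to 9.38. In cKO it was at 19.7 FPKM, above its interval of 16.9 to 18.8. Its log2 difference of 1.04 was the largest of the 10 genes and the only one called. It lay just past the 2-fold line, and the bounds of the intervals gave 0.79 to 1.24. The Pdgfd call was lost after scaling to the same upper quartile (0.99), centring on the median (0.92) or scaling to the same sum (0.72), and with a pseudocount of 5 FPKM (0.81).

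Pdgfb (chromosome 15, 79826306 to 79845238) was at 5.15 FPKM in control, with an interval of 4.39 to 5.58. In cKO it was at 5.83 FPKM, with an interval of 5.19 to 6.04. The libraries overlapped, and the difference of 0.15 was close to the median of all tested genes and turned to -0.13 after scaling to the same sum. Pdgfc (chromosome 3, 80840338 to 81017953) was at 6.40 FPKM in control, with an interval of 5.62 to 7.01. The cKO library had it at 5.20 FPKM, between bounds of 4.69 and 5.38. These intervals were separate, and the log2 difference was -0.26.

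**Figure D1:**
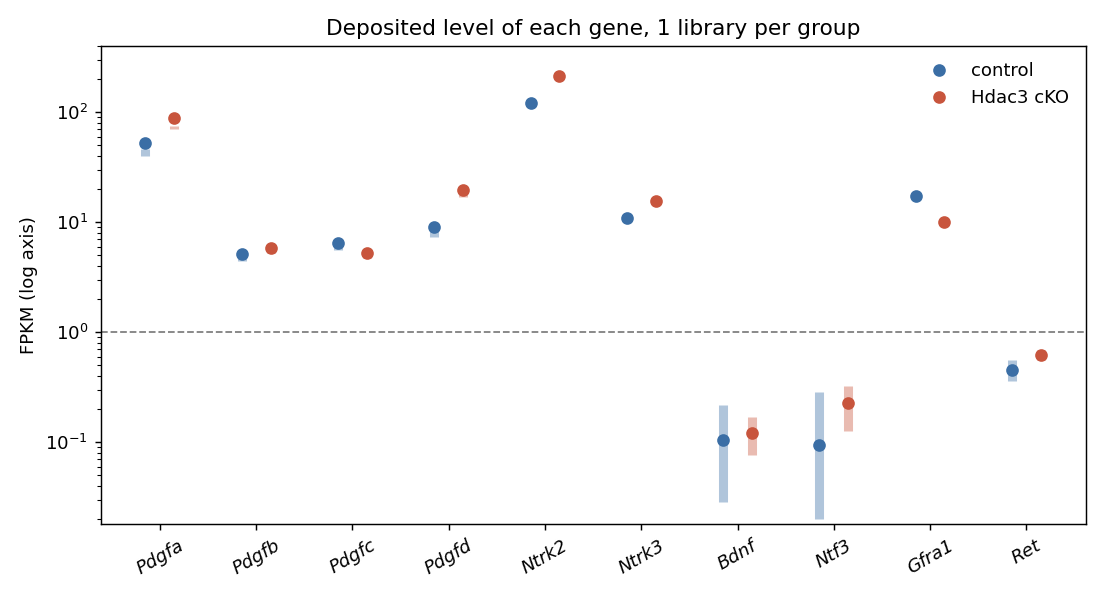
Deposited FPKM (log axis) of the 10 genes in the control (blue) and Hdac3 cKO (red) library. Points are the FPKM, pale bars the deposited interval (cut at 0.02 for Ntf3, whose lower bound in control is 0), and the dashed line marks 1 FPKM, which Bdnf, Ntf3 and Ret did not reach in either library.

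Among the ligands Pdgfa was the most abundant and Pdgfd the next in both libraries, while Pdgfb and Pdgfc were separate only in control. Pdgfa made up 71.6% of the summed FPKM of the 4 ligands in control and 74.4% in cKO. Pdgfd made up 12.5% and 16.4%, Pdgfc 8.82% and 4.33%, and Pdgfb 7.09% and 4.86%. In control the order was Pdgfa, Pdgfd, Pdgfc and Pdgfb, with separate intervals between neighbours. In cKO Pdgfb stood above Pdgfc, but their intervals overlapped, so these neighbours did not differ beyond their intervals. The ratio of Pdgfd to Pdgfc, which no scaling of a library can alter, was 1.42 in control and 3.79 in cKO. The bounds of the intervals gave 1.06 to 1.67 for control and 3.14 to 4.003 for cKO, so the ratios did not overlap.

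Both neurotrophin receptor genes were at higher levels in the cKO library, and the ligand genes were near the floor in both. Ntrk2 (chromosome 13, 58907930 to 59235331) was the most abundant of the 10 genes, at 120.7 FPKM in control with an interval of 120.1 to 124. In cKO it was at 215 FPKM, just below its interval of 217 to 220. The log2 difference was 0.83, larger than that of 90.4% of tested genes, and it did not reach 2-fold. Ntrk3 (chromosome 7, 85337000 to 85722724) was at 10.9 FPKM in control, with an interval of 10.2 to 11.7, and at 15.7 in cKO, with an interval of 15.2 to 16.4. Its intervals were separate, with cKO the higher, as for 38.4% of all tested genes. The log2 difference of Ntrk3 was 0.48, larger than that of 77.8% of tested genes, and was 0.17 after scaling to the same sum.

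Ntrk2 encodes both the full receptor kinase and truncated forms without the kinase domain, and astrocytes are known for the truncated form. The GENCODE annotation (release M21) lists 7 coding transcripts of Ntrk2, with coding lengths from 466 to 821 codons. The deposited value is one level per gene over 2 groups of start sites, so the forms were not separated. The ratio of Ntrk2 to Ntrk3 was 11.0 in control, with 10.3 to 12.3 from the bounds, and 13.7 in cKO, with 13.2 to 14.4.

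Bdnf (chromosome 2, 109514857 to 109567200) was at 0.105 FPKM in control, with an interval of 0.0286 to 0.219, and at 0.121 in cKO, with an interval of 0.0765 to 0.171. Ntf3 (chromosome 6, 126051430 to 126116762) was at 0.0954 FPKM in control, with an interval from 0 to 0.286, and at 0.226 in cKO, with an interval of 0.126 to 0.326. The libraries overlapped for both ligands. In each library Bdnf and Ntf3 had overlapping intervals and were the lowest of the 10 genes. They were under the minimum level and were not tested.

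The co-receptor gene Gfra1 had the largest negative difference of the 10. Gfra1 (chromosome 19, 58310071 to 58529888) was at 17.5 FPKM in control, with an interval of 16.4 to 18.3, and at 10.1 in cKO, with an interval of 9.56 to 10.5. The intervals were separate and both values lay inside their own. The log2 difference was -0.74, with -0.87 to -0.60 from the bounds, and 7.34% of tested genes had a lower one. It did not reach 2-fold on the deposited scale and reached it after scaling to the same sum (-1.04). Ret (chromosome 6, 118101766 to 118147762), the signalling kinase, was at 0.458 FPKM in control, with an interval of 0.359 to 0.556. In cKO it was at 0.627 FPKM, with an interval of 0.557 to 0.696. The Ret intervals missed each other narrowly at a level under 1 FPKM, and Ret was not tested. Gfra1 stood at 38.2 times the level of Ret in control and 16.1 times in cKO.

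Gfra1 and Ntrk3 exchanged places between the libraries. The ratio of Gfra1 to Ntrk3 was 1.60 in control, with 1.40 to 1.80 from the interval bounds. It was 0.643 in cKO, with 0.584 to 0.686 from the bounds. Gfra1 was thus above Ntrk3 in control and below it in cKO, with separate intervals in each library. The ratio of Ntrk2 to Gfra1 was 6.91 in control and 21.3 in cKO. The ratio of Pdgfa to Ntrk2, by contrast, was 0.431 in control and 0.416 in cKO, so the most abundant ligand and the most abundant receptor differed between the libraries by nearly the same factor, 1.72 for Pdgfa and 1.78 for Ntrk2. The bounds gave 0.318 to 0.386 for the control ratio and 0.318 to 0.347 for the cKO ratio, and both ratios lie above them, as the Pdgfa values lie above their own intervals.

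**Figure D2:**
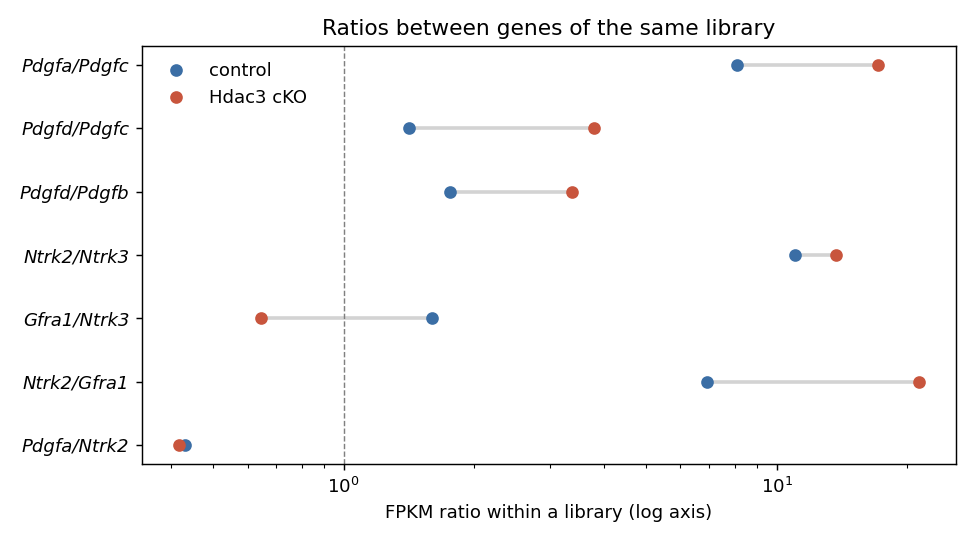
Ratio of the FPKM of one gene to that of another within the control (blue) and the Hdac3 cKO (red) library, on a log axis, with a dashed line at a ratio of 1. The ratio of Gfra1 to Ntrk3 crosses the line, from 1.60 to 0.643, while that of Pdgfa to Ntrk2 is 0.431 and 0.416.

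Across the 10 genes, 7 were tested, 1 was called higher and 0 lower, against a background of 4.73% of tested genes called higher and 4.51% lower. A single call among 7 genes is too few to set apart from that background. The intervals of the libraries were separate for 6 of the 7, against 60.9% of all tested genes. For 4 of them the cKO interval was the higher (38.4% of all tested genes) and for 2, Pdgfc and Gfra1, the lower (22.5%). With a line at 1.5-fold in place of 2-fold, Pdgfa, Pdgfd and Ntrk2 were called higher and Gfra1 lower, where the background was 16.0% higher and 8.85% lower. The median difference of the 7 genes was 0.48, against 0.12 for all tested genes, with a spread from -0.74 to 1.04. Under the alternative scalings and pseudocounts the difference stayed above 0 for Pdgfa (0.44 to 0.78), Pdgfd (0.72 to 1.11), Ntrk2 (0.49 to 0.83) and Ntrk3 (0.17 to 0.52). It stayed below 0 for Gfra1 (-1.04 to -0.57) and Pdgfc (-0.53 to -0.16). These signs were fixed in advance. Each scaling lowers the cKO values, by a factor of 0.965 for the upper quartile and 0.793 for the sum. A pseudocount cannot change a sign, and the 4 positive differences were larger than any of these shifts. The ranges thus describe size and are no test of direction.

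**Figure D3:**
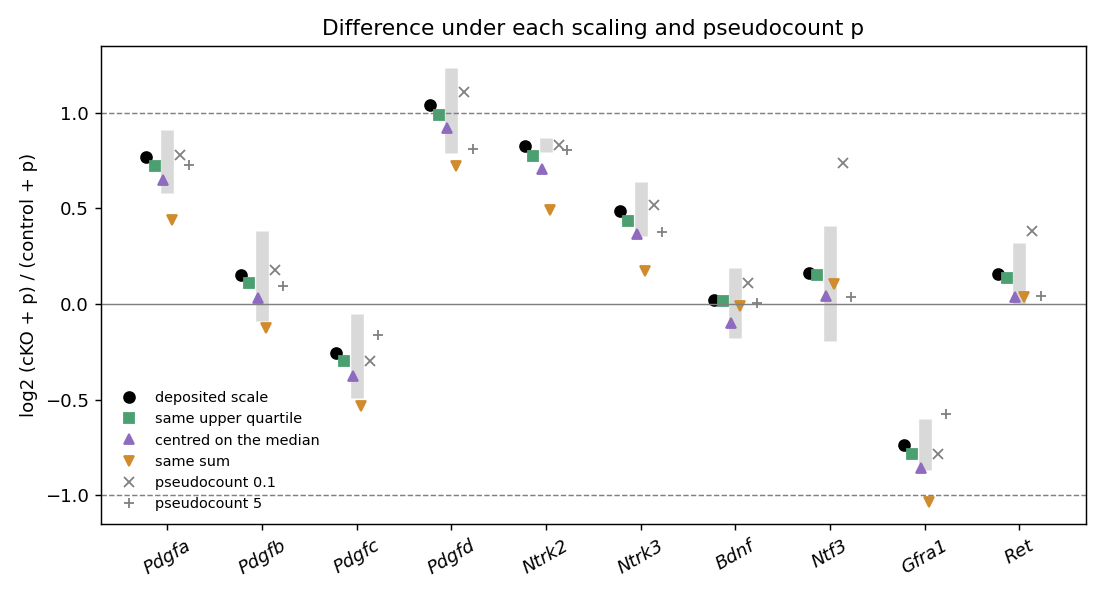
Log2 difference of cKO against control for each gene on the deposited scale (black circles) and under the other scalings and pseudocounts p. Grey bars give the difference from the bounds of the deposited intervals with a pseudocount of 1, and dashed lines mark 2-fold. Pdgfd at 1.04 lies at the upper line, and Gfra1 crosses the lower line with the same sum at -1.04.

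In the list for ligand release and binding, which includes the receptor-like gene Pdgfrl, 1 gene was called. Of 9 genes in this list 8 were tested, with 1 called higher and 0 called lower, and 6 of the 8 had a positive difference, as did 61.4% of all tested genes. Their median was 0.79. The called gene was Pdgfrl, which encodes a secreted protein resembling a PDGF receptor, at 29.8 FPKM in the control library against 74.98 in the cKO library (log2 1.30), each above its own interval. The Pdgfrl call was lost after scaling to the same sum (0.97). Sparc, a matrix protein that binds PDGF-B, was at 994 and 1900 FPKM (log2 0.93). Plat, the tissue plasminogen activator that cleaves PDGF-C, was at 242 FPKM in the control library against 234 in the other (log2 -0.05).

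The remaining neurotrophin genes showed no common direction. The list was searched by 10 symbols, of which 9 had an entry, and 6 genes were tested. The median difference of these 6 was 0.16, and 3 were positive, against 0.12 and 61.4% for all tested genes. In this list 1 gene was called higher and 0 lower. Sorcs2, a receptor of the sortilin family that binds proneurotrophins, was called, with 5.21 FPKM in control against 12.5 in cKO (log2 1.12). The Sorcs2 call was lost with a pseudocount of 5 FPKM (0.78) and after scaling to the same sum (0.82). Sort1, the gene for sortilin, was at 30.4 and 23.2 FPKM (log2 -0.38).

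Of the 9 other GDNF family genes 6 were tested, 0 were called in either direction, and 5 of the 6 differences were above 0, against 61.4% of all tested genes, with a median of 0.63. The FPKM summed over the list, most of it from Ncam1 and Sdc3, was 152 in control and 136 in cKO, a log2 ratio of -0.15. Ncam1, the adhesion molecule that can carry the GDNF signal in place of RET, was the most abundant and was the exception, with 94.5 FPKM in control against 66.4 in cKO (log2 -0.50). Sdc3, a syndecan that binds GDNF, was at 46.5 and 50.0 FPKM (log2 0.10). Gfra2, the receptor of neurturin, which is named on account of its values, stood at 6.89 FPKM in control against 12.1 in cKO (log2 0.74), a difference of the opposite sign to that of Gfra1.

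Of 27 adaptors and effectors of receptor kinases 26 were tested, with a median of -0.01, against 0.12 for all tested genes. Above 0 were 13 of the 26 differences, against 61.4% of all tested genes. The 1 gene called lower was Fyn, a Src family kinase of oligodendrocytes with a role in myelination, with 189 FPKM in control against 56.6 in cKO (log2 -1.72), and 0 were called higher. Ptpn11, the phosphatase SHP2, was at 63.6 and 46.2 FPKM (log2 -0.45). Over all 4 lists 6.52% of the 46 tested genes were called, against 9.23% of all tested genes in either direction. At 1.5-fold 14 of the 46 were called higher and 2 lower, against 16.0% and 8.85% of all tested genes.

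**Figure D4:**
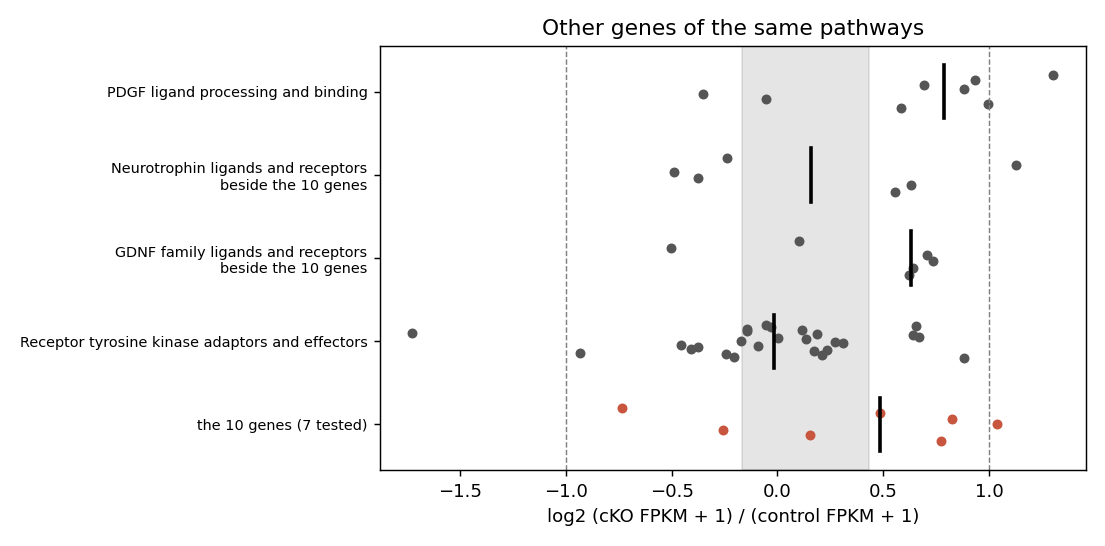
Log2 difference of each tested gene in the 4 pathway lists (grey) and of the 7 tested genes among the 10 (red), with black bars at the medians. The grey band is the range between the quartiles of all tested genes, from -0.17 to 0.43, and dashed lines mark 2-fold. Fyn, at -1.72, lies apart from the other adaptors.

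Markers of the cell types of the nerve differed between the libraries at the same time. In bulk tissue, fewer cells of a type and less RNA per cell cannot be told apart. All 5 oligodendrocyte markers were called lower, against 4.51% of all tested genes. Their summed FPKM was 10996 in control and 1614 in cKO. Of 4 precursor markers 2 were called lower, Neu4 and Gpr17, which also marks newly formed oligodendrocytes. The sum of the 4 was 292 and 103, while Cspg4 (log2 -0.46) and Ptprz1 (log2 0.12) were not called.

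For the 6 astrocyte markers the summed FPKM was 838 in control and 1294 in cKO, a log2 ratio of 0.63. Of their 6 differences 5 were above 0, against 61.4% of all tested genes, and 1 was called higher, against 4.73%. The differences of Pdgfa (0.77) and Ntrk2 (0.83) lie inside the range of these markers, from -0.24 to 1.39. That range is wide and also holds Pdgfb (0.15), Ntrk3 (0.48) and Pdgfd (1.04). The Pdgfa and Ntrk2 differences lie inside the ranges of other cell types too. These include the endothelial (0.09 to 0.85), mural (0.08 to 1.11) and neuron markers (-0.92 to 1.28). The part of astrocytes in the Pdgfa and Ntrk2 values was not tested. The 6 meningeal fibroblast markers summed to 1726 and 4045 FPKM, with 5 called higher, and the 6 mural markers to 237 and 428, with 1 called higher. Their part in the Pdgfd and Pdgfrl values was not tested. The 6 endothelial markers summed to 131 and 166 FPKM, with a median difference of 0.30 and 0 called, beside a Pdgfb difference of 0.15.

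The remaining lists had 1 call between them, beside 9.23% of all tested genes called in either direction. The 6 microglia markers summed to 183 FPKM in control and 281 in cKO, and 0 were called. Most of these sums came from C1qa (log2 0.71) and C1qb (log2 0.83). Cx3cr1 was at 16.2 FPKM in both libraries, and P2ry12 was slightly lower in cKO (log2 -0.19). Of the 6 differences 4 were above 0, against 61.4% of all tested genes. The 6 neuron markers summed to 35.5 and 49.2 FPKM, with 1 called higher. The called gene was Nefl, at 11.6 FPKM in control and 29.5 in cKO. Tubb3 alone was lower in cKO, at 12.7 and 6.24 FPKM (log2 -0.92). The 4 photoreceptor markers summed to 0.439 and 0.462 FPKM, and 0 of them reached 1 FPKM. The sums were 14.0 and 26.8 FPKM for 5 retinal ganglion cell markers, 2.69 and 5.31 for 3 Schwann cell markers, and 13.7 and 18.2 for 4 skeletal muscle markers, with 0 called in these lists. Only 2 markers were tested in each of the retinal ganglion cell, Schwann cell and muscle lists. Most of the retinal ganglion cell sums came from Sncg and Rbpms. Pou4f1 (0.343 and 0.111 FPKM) and Isl1 (0.140 and 0.0296) were lower in cKO, at levels under 1 FPKM. None of the markers in any list was at 0 in either library.

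**Figure D5:**
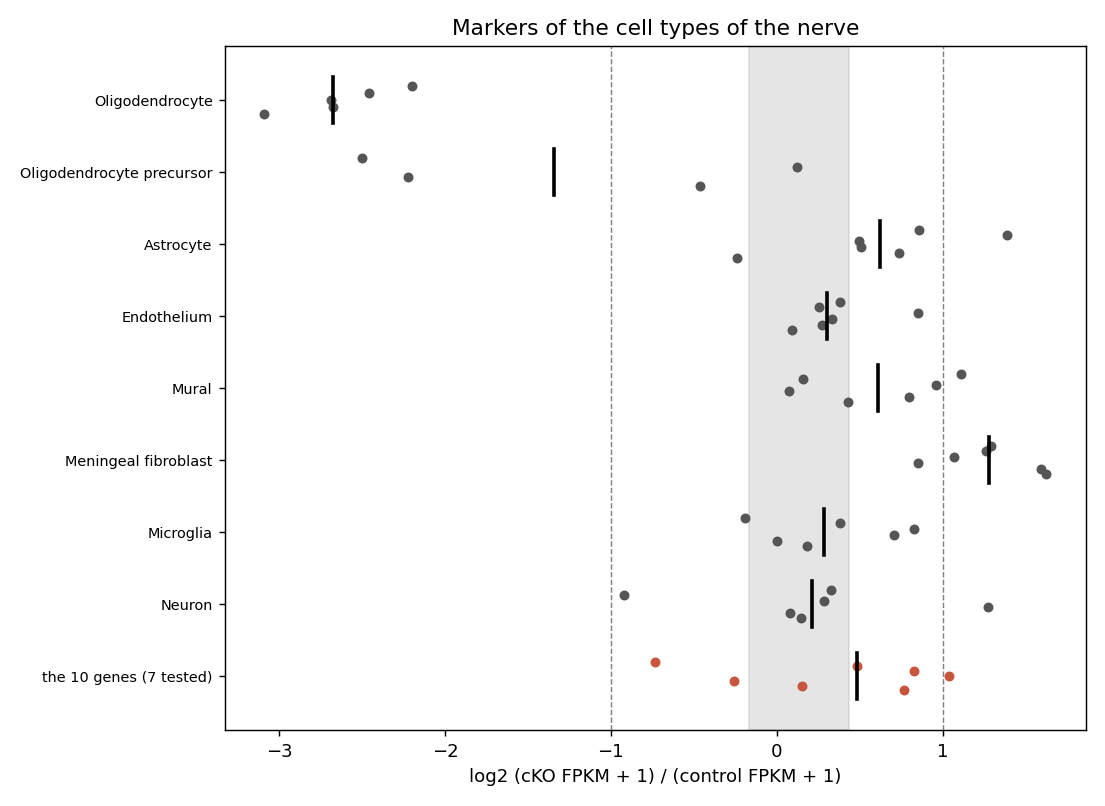
Log2 difference of cKO against control for the tested markers of each cell type (grey) and for the 7 tested genes among the 10 (red), with black bars at the medians, for lists with more than 2 tested markers. The grey band is the range between the quartiles of all tested genes and dashed lines mark 2-fold. Oligodendrocyte markers lie between -3.09 and -2.20, and the 7 genes between -0.74 and 1.04.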

How the data were processed

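RNA-seq was done on 2 samples of optic nerve, 1 per group. Per the labels' protocols, Trizol was used on frozen nerves and an Illumina TruSeq RNA kit for the libraries. Per the file headers, the deposited values are FPKM for each gene, with an interval and a status. CASAVA, TopHat, Cufflinks and mm9 are named in the submitters' processing notes. The sources used here give no versions, annotation or read depth. The FPKM were used as deposited. Entries were matched by symbol, start site group and locus, and the entry with the highest summed FPKM stood for a symbol with several. Genes needed status OK in both libraries and 1 FPKM in at least 1. The pseudocount was 1 FPKM, and a call needed a 2-fold difference and separate deposited intervals. An interval can exclude its own FPKM, and did for 3 of the 10 genes. Named are the 10 genes and, of each pathway list, the called genes and the 2 most abundant, with Gfra2 added after its values were seen. The genes and lists were chosen with earlier results of these data known. Whether the libraries kept strand was not checked. If they did not, reads of an antisense partner cannot be told apart. In GENCODE M21, 8 of the 10 genes overlap a gene on the opposite strand. Of these partners only Ddi1, which overlaps Pdgfd, has an entry in the deposited table, at 0 FPKM in control and 0.00869 in cKO. Python 3.11.15, pandas 2.3.3 and numpy 2.4.6 were used. Alternatives were other pseudocounts, scalings, minimum levels and call rules.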

Additional observations from a re-analysis of the deposited data

How the results depend on the processing

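No paired analysis was possible because each group has 1 library, and no library could be left out. The number of the 10 genes called higher was 1 on the deposited scale, 3 at 1.5-fold, and 0 with a pseudocount of 5 FPKM, with equal upper quartiles, with the median centred at 0 and with equal sums. The number called lower was 0 on the deposited scale and 1 after scaling to the same sum and at 1.5-fold. Of all tested genes 669 were called higher, against 1156 with a pseudocount of 0.1 FPKM, 282 with 5 FPKM, 439 after centring, 215 with the same sum and 2262 at 1.5-fold. The 638 called lower became 339 with a pseudocount of 5 FPKM, 960 with the same sum and 1253 at 1.5-fold. Higher calls made up 51.2% of calls on the deposited scale, 36.6% after centring, 18.3% with the same sum and 64.4% at 1.5-fold. Of the 46 tested genes in the 4 pathway lists together, 2 were called higher (4.73% of all tested genes). This became 4 with a pseudocount of 0.1 FPKM, 1 with 5 FPKM, 0 with the same sum and 14 at 1.5-fold. At 1.5-fold the share of all tested genes called higher was 16.0%. The 1 gene of these lists called lower became 2 after centring, with the same sum and at 1.5-fold, where 8.85% of all tested genes were called lower. The median of all tested genes was 0.12 on the deposited scale and -0.16 with the same sum. The cause of these shifts was not tested. Ratios between genes of 1 library do not depend on the scaling. Read depth is unknown, and it limits Bdnf, Ntf3 and Ret most, since each was under 1 FPKM.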
